A study of Mus musculus with 32 samples.

Results

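Tumours grown from the KPC36 cell line, a pancreatic tumour line of the mouse, differed in how much skeletal muscle RNA they held, and 16 muscle-rich libraries were compared with 16 muscle-poor ones, 32 libraries in all. A score was computed for each library as the mean log2(CPM + 1) of Acta1, Myh4, Atp2a1 and Ckm, where CPM is the usual count scaled by the library's column total. In each of 4 treatment groups the 4 libraries of 8 with the highest score were called muscle-rich and the other 4 muscle-poor. The classes were thus chosen by the measured levels of these 4 genes, so their values are given as a description with no test. The classes say nothing of how the tissue was cut, which no label records.

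Bulk RNA sequencing had been done on tumours irradiated with carbon ions (labelled carbon_treated), untreated controls of that arm (carbon_ctrl), tumours irradiated with photons (photon_treated) and untreated controls of that arm (photon_ctrl). All 4 groups hold the same cell line, and the labels give neither its genotype, the host strain, age or sex, the dose, nor the site of growth. The design text gives 2 collection times, days 4 and 7 after treatment, but no label gives the day of a library, so day and class cannot be told apart. The labels do not state that the libraries of a group came from separate mice, so p-values measure the spread between these libraries, which may be technical in part. Library totals ran from 17954086 to 48229979 estimated counts in the muscle-rich class and from 13891863 to 71645903 in the muscle-poor class.

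Skeletal muscle fibres are long cells packed with sarcomeres, in which myosin thick filaments pull on actin thin filaments that are anchored at Z-discs. Calcium released from the sarcoplasmic reticulum through the ryanodine receptor starts contraction, and the SERCA pump returns it. Fast fibres use other isoforms of myosin, troponin and calsequestrin than slow fibres. In muscle cells the MyoD family binds E-boxes, MEF2 factors bind AT-rich sites and serum response factor binds CArG boxes, and these sites are common near the starts of contractile genes.

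The proteins behind the score cover these parts. Acta1 encodes skeletal alpha-actin and lies on chromosome 8 from 123891769 to 123894751 (minus strand). Myh4 encodes the fast type IIB myosin heavy chain, on chromosome 11 from 67238029 to 67260446 (plus strand). Atp2a1 encodes the fast-fibre SERCA pump, on chromosome 7 from 126445858 to 126463108 (minus strand). Ckm encodes muscle creatine kinase, which buffers ATP, on chromosome 7 from 19404776 to 19422841 (plus strand). All of these are GENCODE vM21 positions on GRCm38. The promoters of the score genes are shown because the 4 genes define the classes and moved together over the libraries. Each sequence is the 250 bases before the RefSeq start (GRCm38.p6), written along the gene's strand, with E-boxes (CANNTG), the MEF2 site and CArG boxes in capitals.
Acta1 (chr8:123894776-123895025, minus strand): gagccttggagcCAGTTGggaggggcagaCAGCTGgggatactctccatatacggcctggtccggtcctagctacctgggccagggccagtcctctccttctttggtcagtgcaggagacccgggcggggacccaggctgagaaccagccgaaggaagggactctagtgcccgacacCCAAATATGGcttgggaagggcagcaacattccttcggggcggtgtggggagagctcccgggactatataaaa
Atp2a1 (chr7:126463074-126463323, minus strand): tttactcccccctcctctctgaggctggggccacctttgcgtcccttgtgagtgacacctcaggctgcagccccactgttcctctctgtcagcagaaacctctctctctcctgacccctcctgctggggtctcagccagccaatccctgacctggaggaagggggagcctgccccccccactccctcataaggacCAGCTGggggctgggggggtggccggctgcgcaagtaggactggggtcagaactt
Ckm (chr7:19410844-19411093, plus strand): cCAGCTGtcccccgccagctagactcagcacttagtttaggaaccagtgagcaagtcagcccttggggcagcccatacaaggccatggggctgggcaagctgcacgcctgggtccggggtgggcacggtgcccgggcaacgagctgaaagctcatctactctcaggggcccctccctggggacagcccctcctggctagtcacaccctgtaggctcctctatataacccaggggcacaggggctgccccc
Myh4 (chr11:67237562-67237811, plus strand): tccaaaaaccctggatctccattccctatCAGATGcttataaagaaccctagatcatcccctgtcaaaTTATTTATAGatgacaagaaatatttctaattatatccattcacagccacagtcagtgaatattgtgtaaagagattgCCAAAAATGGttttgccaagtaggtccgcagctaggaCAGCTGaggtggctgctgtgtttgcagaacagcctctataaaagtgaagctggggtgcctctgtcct

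The E-box CAGCTG was found in all 4 of these windows, which is 100% against 13% of 32851 windows of the same length over all RefSeq promoters. CANNTG in any form is common, at 66.2% of all promoters. Both strands were searched; CAGCTG is its own reverse complement and is a form of CANNTG. Myh4 also held a MEF2 site 182 bases and a CArG box 104 bases before its start, and Acta1 held a CArG box 73 bases before its start. Promoters were matched for 39 of the 62 muscle list genes and 105 of the 132 other genes that were higher in the rich class, with some genes having several. Of the former, 33.3% of 48 promoters held CAGCTG, 10.4% a MEF2 site and 8.33% a CArG box. Of the latter the shares were 27.9%, 15% and 2.72% of 147 promoters, and over all promoters MEF2 and CArG matches stood at 2.92% and 1.47%. A match is a stretch of letters and not a measured binding site.

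The score ran from 0.13 to 9.68 over the 32 libraries. In the carbon-ion controls the rich libraries scored 9.33, 8.75, 7.51 and 6.17 and the poor ones 5.31, 5.09, 2.84 and 0.13. In the carbon-ion irradiated group the rich scores were 9.68, 7.35, 7.15 and 6.43 and the poor scores 6.24, 3.98, 2.32 and 0.79. The carbon-ion arm was thus a graded series, and just at the border 2 irradiated libraries lay only 0.18 apart on this log2 scale. In the photon controls the 4 rich libraries lay together at 8.27, 8.21, 8.20 and 8.04, and the poor ones at 6.10, 4.42, 1.41 and 0.94. After photons the rich libraries scored 6.50, 5.86, 2.11 and 1.76 and the poor ones 0.61, 0.58, 0.18 and 0.17. Rich and poor are therefore relative to the group: 8 muscle-poor libraries scored above the lowest-scoring muscle-rich library, and 4 muscle-rich libraries scored below the highest-scoring muscle-poor one.

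**Figure D1:**
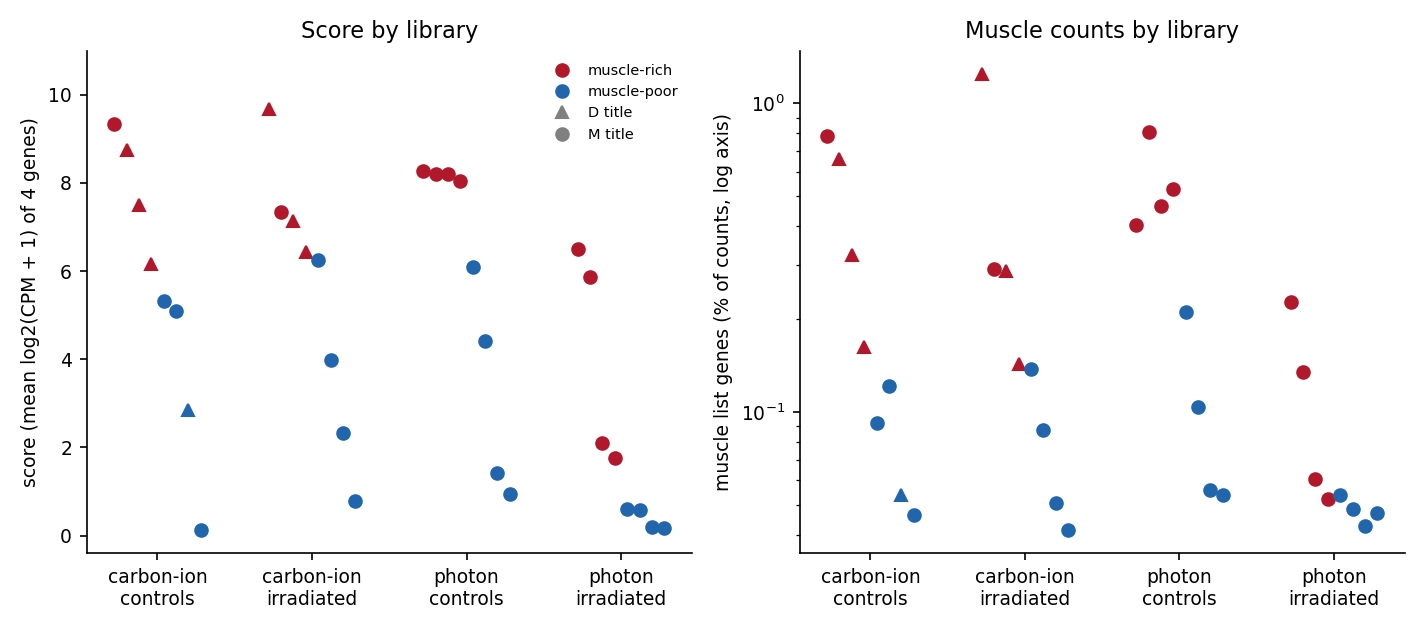
Score (left) and percent of all counts from 115 genes of the muscle lists (right, log axis) in each of the 32 libraries, ordered by score within each treatment group. Red marks muscle-rich, blue muscle-poor, triangles D titles and circles M titles; the lowest red points after photons lie below several blue points of the other groups.

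Behind the scores lie wide ranges of the single genes. Acta1 lay between 5.90 and 1278 CPM in the rich libraries, with a median of 326, and between 0.206 and 149 CPM in the poor ones, with a median of 7.43. Myh4 lay between 1.36 and 1036 CPM in the rich libraries, with a median of 142, and between 0 and 79.4 CPM in the poor ones, with a median of 1.97. It was at 0 in photon-irradiated replicates 2, 3 and 7, all muscle-poor. Atp2a1 had medians of 182 and 3.27 CPM and Ckm of 110 and 1.21 CPM in the rich and poor class. The 115 genes of all muscle lists together took from 0.0522% to 1.25% of the counts in rich libraries (median 0.307%) and from 0.0413% to 0.210% in poor ones (median 0.0539%). Even in the richest library, carbon-ion irradiated replicate 3, nearly all counts came from other genes. In bulk tissue, fewer muscle cells and less RNA per muscle cell cannot be told apart.

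The classes were not balanced over the title letters, whose meaning is not stated. Of the 7 libraries with a D title, all in the carbon-ion arm, 6 were muscle-rich and 1 was muscle-poor. Of the M-titled libraries 10 were rich and 15 poor. In each carbon-ion group only 1 muscle-rich library had an M title, so letter and class overlap in that arm. Fits with the letter as a block and on M titles alone are given below. They cannot fully separate letter from class there, and the fit on M titles also rests on fewer libraries. When the score was rebuilt from the 111 other muscle list genes, 2 libraries changed class, both carbon-ion controls (replicates 4 and 7).

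Across the 20470 tested genes outside the score, 198 differed between the classes at an edgeR quasi-likelihood adjusted p under 0.05 (Benjamini-Hochberg, treatment group as a block), which is 0.967% of those tested. The difference was one-directional: 194 genes were higher in the muscle-rich libraries (0.948%) and 4 were lower (0.0195%). Of the 194, 170 were higher by more than 2-fold, while no lower gene passed 2-fold. The median log2 difference over all tested genes was -0.01. Of the 194 higher genes, 184 differed in the same direction in each of the 4 groups, and 69 were above the median of their own group's poor libraries in 16 of 16 rich libraries. The 194 were chosen by the fit over these same libraries, so both counts are in part built in and are descriptions. With M titles alone 158 genes passed, and with the letter as a block 181. Genes of the same fibres as the score genes were in effect measured alongside the score in the same libraries, so their p-values describe how closely they followed it and are no independent evidence for the classes.

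The muscle lists took 62 of the 194. Of their 102 tested genes outside the score, 62 were higher, 0 were lower and 99 had a positive log2 difference, a share of 60.8% called against 0.948% over all genes. The levels below are CPM on TMM-scaled library totals, given as lowest, median and highest, and differences are log2(rich/poor) from the blocked fit with their standard errors.

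In the thick filament and M-line list, 8 of 11 tested genes were higher, with a median log2 difference of 3.04. Myh1, the fast IIX/D heavy chain, lay at 0.900, 20.3 and 123 CPM in the rich libraries and at 0, 0.813 and 19 CPM in the poor ones. All 16 rich libraries were above the median of the poor libraries of their group, although the ranges of the classes overlapped. Its difference was 3.47 ± 0.60 (SE; adjusted p = 0.000510). Mylpf, the regulatory light chain of fast fibres, differed by 3.56 ± 0.49 (adjusted p = 7.41e-05), from a median of 1.3 CPM in the poor class to 24.6 CPM in the rich class. Myom3, Myh2 and Myh7 did not pass. Myl2 and Myl3, light chains of slow fibres and heart, were too low to be tested.

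The thin filament list had 8 of 11 tested genes higher, with a median of 2.10. Tnnt3, fast troponin T, lay at 0.270, 20.0 and 84.8 CPM in the rich libraries and at 0.0916, 0.532 and 10.2 CPM in the poor ones, a difference of 3.59 ± 0.54 (adjusted p = 0.000136). Tnnc2, fast troponin C, was far lower in level, at medians of 2.79 and 0.0162 CPM, and differed by 4.02 ± 0.61 (adjusted p = 0.000140). Near 0 in the poor class, Tnnc2 entered the test through the rich libraries, so these values are a description. The 3 genes of the list that did not pass, Tnnc1, Tnni1 and Tnnt1, are the slow troponins.

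The Z-disc, titin and cytoskeleton list was the most complete, with 14 of 15 genes higher and a median of 3.13. Ttn, the giant spring protein that spans from Z-disc to M-line, was read at 811, 1397, 487 and 1605 CPM in the rich carbon-ion controls and at 30.9, 6.25, 311 and 131 CPM in the poor ones. In the photon-irradiated group it stood at 695, 337, 61.5 and 35.2 CPM in the rich libraries and at 11.1, 44.0, 17.3 and 15 CPM in the poor ones. The classes did not overlap in the carbon-ion controls, and in the photon-irradiated group 1 poor library lay above the lowest rich library. Over all groups Ttn differed by 3.46 ± 0.52 (adjusted p = 0.000141), from 114 ± 151 CPM to 1193 ± 1187 CPM (SD, n = 16 each). Actn3, the Z-disc actinin of fast fibres, differed by 3.92 ± 0.60 (adjusted p = 0.000141). Des, the desmin of the intermediate filaments around Z-discs, differed by 2.44 ± 0.40 (adjusted p = 0.000277) from a higher base, with medians of 16.5 and 113 CPM. Only Myoz2, a Z-disc protein of slow fibres and heart, did not pass.

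For excitation-contraction coupling and calcium handling, 12 of 17 tested genes were higher, with a median of 2.29. Pvalb, the calcium buffer parvalbumin of fast fibres, had the largest log2 difference of all called genes outside the score, 4.77 ± 0.66 (adjusted p = 7.41e-05). With a poor-class median of 0.0877 CPM, it entered the test through the rich libraries, so its size, rank and p-value are descriptions. It was read at 7.11, 30.2, 8.84 and 96.5 CPM in the rich carbon-ion controls and at 0.431, 0, 2.26 and 5.0 CPM in the poor ones. In the photon controls the rich libraries had 12.4, 31.3, 15.2 and 23.2 CPM and the poor ones 0.862, 0.0454, 1.85 and 0.0370 CPM. Neither of these groups had an overlap between classes. After photons Pvalb was at 7.01 and 4.02 CPM in 2 rich libraries, at 0.0515 and 0.0900 CPM in the other two, and at 0 in all 4 poor libraries.

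Of the calcium release machinery, Ryr1, the ryanodine receptor of the sarcoplasmic reticulum, differed by 3.48 ± 0.60 (adjusted p = 0.000510), with medians of 4.73 and 101.1 CPM. Cacna1s, the voltage sensor in the T-tubule, differed by 2.82 ± 0.41 (adjusted p = 9.53e-05). Casq1, the calcium store protein of fast fibres, differed by 2.29 ± 0.36 (adjusted p = 0.000185). Sln, sarcolipin, which inhibits the SERCA pump, differed by 4.12 ± 0.83 (adjusted p = 0.00361) at low levels, with medians of 0.0864 and 2.12 CPM, and its adjusted p was 0.0859 without the carbon-ion irradiated group. Sln too was near 0 in the poor class and entered the test through the rich libraries, so its values are a description. Cacnb1, Casq2, Clcn1, Jph2 and Stac3 did not pass, and Mrln was too low to be tested.

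Energy metabolism followed with 11 of 16 tested genes higher and a median of 1.5. Pygm, the muscle glycogen phosphorylase, differed by 3.18 ± 0.51 (adjusted p = 0.000236), with medians of 1.53 and 31.4 CPM. Eno3, the muscle form of the glycolytic enzyme enolase, differed by 1.45 ± 0.23 (adjusted p = 0.000161); its poor libraries already held between 4.08 and 22.8 CPM. Mb, the oxygen store myoglobin, differed by 2.83 ± 0.57 (adjusted p = 0.00361), but its adjusted p was 0.0753 with M titles alone, and it also missed the threshold without either irradiated group. The list genes that did not pass were Cox7a1, Fbp2, Phka1, Ppargc1a and Slc2a4.

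The neuromuscular junction and muscle membrane list had 4 of 14 tested genes higher, and the median was 0.51. Chrna1, a subunit of the acetylcholine receptor, lay between 15.1 and 45.4 CPM in the rich libraries and between 12.6 and 35.9 CPM in the poor ones. Its difference was 0.14 ± 0.12 (adjusted p = 0.924), and the ranges of the classes overlapped over most of their length.

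Of 8 tested muscle transcription factors, 4 were higher (Myod1, Myf6, Vgll2 and Smyd1) and the median was 2.37. Myod1, the founding member of the MyoD family, differed by 2.99 ± 0.54 (adjusted p = 0.000943), with medians of 0.0888 and 0.750 CPM. At these levels Myod1 entered the test through the rich libraries, so its difference and p-value are descriptions. Myog, the factor of differentiating muscle cells, had a log2 difference of 2.26 ± 0.62 with an adjusted p of 0.0885, which missed the threshold. It passed with DESeq2, with 3 against 3 libraries and with the continuous score (adjusted p = 0.000155), and also without the photon controls, without carbon-ion irradiated replicate 6 or without photon control replicate 4 (adjusted p = 0.00490 for the last). None of the 4 tested satellite cell genes passed, and Pax7, the marker of these muscle stem cells, had 0.57 ± 0.27 (adjusted p = 0.743) at medians of 0.257 and 0.392 CPM. Among 6 tested genes of embryonic and regenerating muscle, Actc1 alone passed, while the list's median was 1.83. Myh3, embryonic myosin, had 2.36 ± 0.70 (adjusted p = 0.166) at medians of 0.179 and 1.02 CPM. It passed with DESeq2, without the photon controls and with the continuous score (adjusted p = 0.000114).

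**Figure D2:**
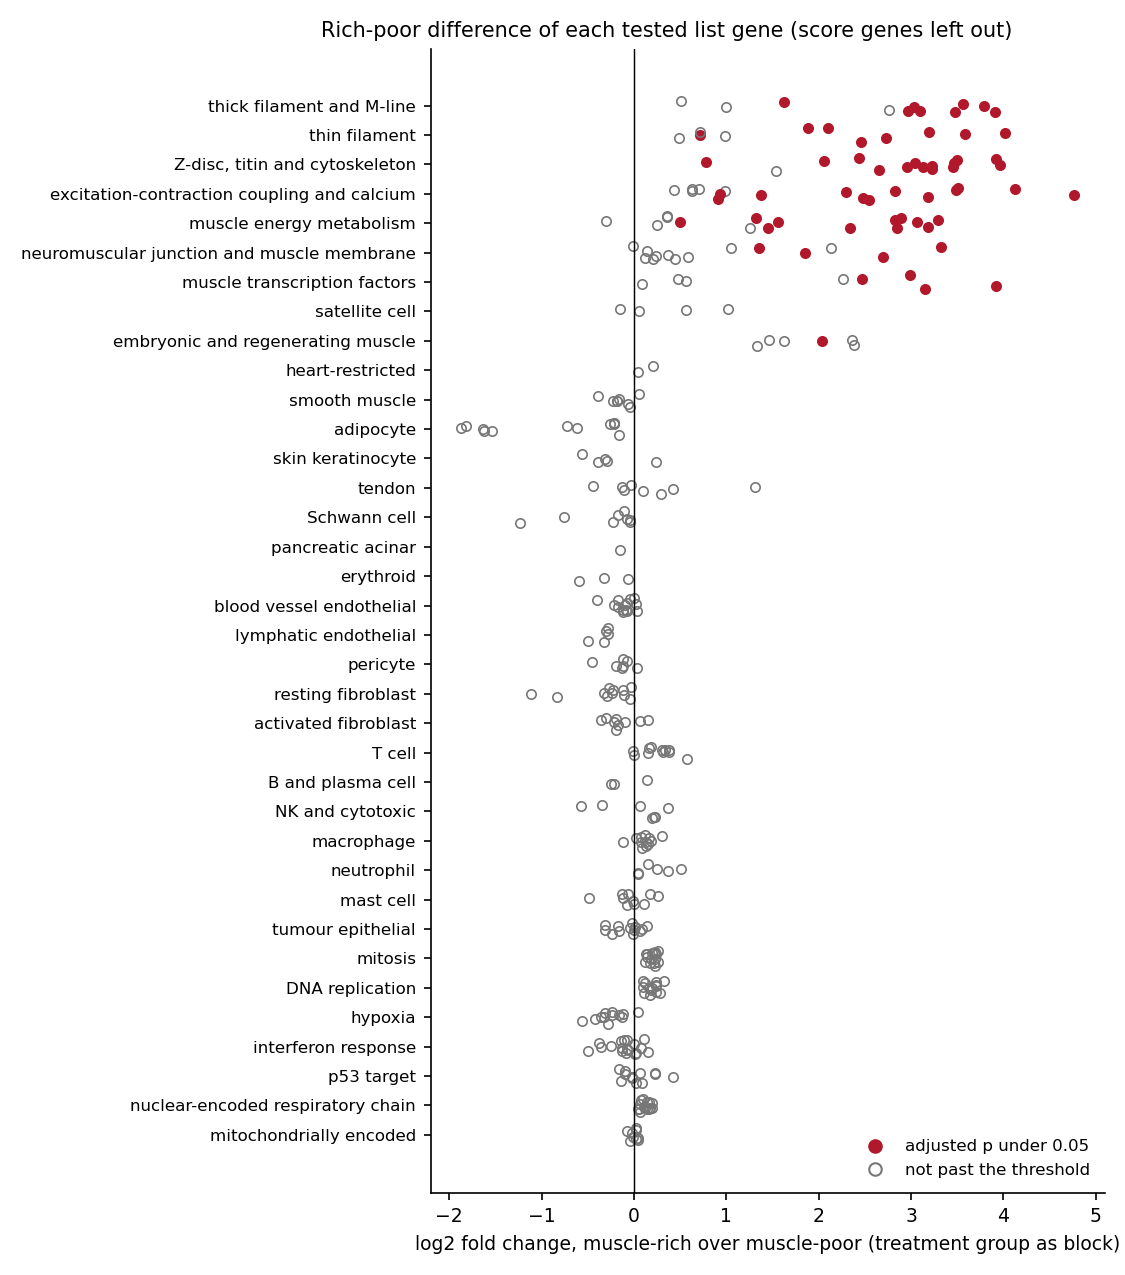
Log2 fold change of muscle-rich over muscle-poor libraries for each tested list gene outside the score, 1 line per list, with treatment group as a block. Filled points passed an adjusted p under 0.05: all 62 lie in the muscle lists, and none of the 251 genes of the other lists passed.

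The fast and slow members of these families were then set side by side. Of the genes of fast fibres outside the score, 9 of 10 were higher (median 3.57), the exception being Myh2, the heavy chain of IIA fibres. Of 8 tested genes of slow fibres, 0 were higher (median 0.61). These counts moved with the method: with the continuous score Casq2 and Tnnt1 passed (edgeR adjusted p = 0.00187 and 0.0190). Over all tested genes 0.948% were higher. The score holds 2 genes of the fast list, Myh4 and Atp2a1, and none of the slow list. The classes were thus sorted in part on fast-fibre RNA, so the counts for fast and slow genes are descriptions. Whether the fast and slow lists differ was not tested, and several slow genes are also made by other tissues. Myh7, the slow heavy chain, was read in the rich carbon-ion irradiated libraries at 13.6, 0, 0.140 and 3.70 CPM and in the poor ones at 1.65, 1.85, 0 and 0 CPM. In the photon controls it was at 0.104, 0, 5.87 and 0 CPM in the rich libraries and at 2.98, 2.32, 2.85 and 0 CPM in the poor ones, so it did not follow the classes. Its log2 difference was 0.51 ± 0.96 (adjusted p = 0.988). Slow troponin T, Tnnt1, had 0.99 ± 0.36 (adjusted p = 0.486), slow troponin C, Tnnc1, had 0.49 ± 0.34 (adjusted p = 0.892), and the slow and cardiac calsequestrin Casq2 had 0.99 ± 0.38 (adjusted p = 0.583). Myh2 had 2.76 ± 0.77 (adjusted p = 0.10), and it passed with DESeq2, with the continuous score (adjusted p = 0.00705) and without carbon-ion control replicate 7 (adjusted p = 0.00802).

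**Figure D3:**
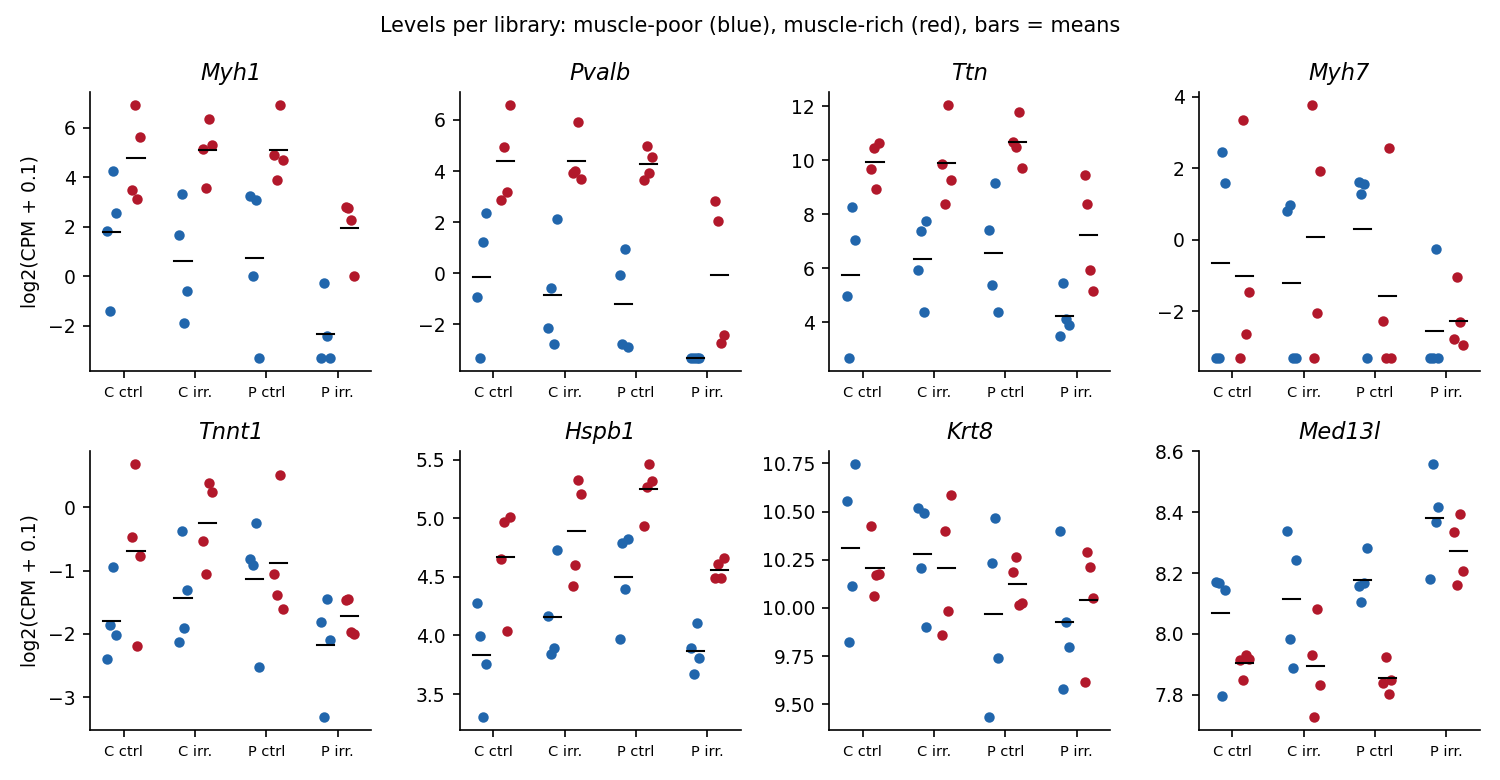
Level of 8 genes in each library as log2(CPM + 0.1), by treatment group (C, carbon-ion arm; P, photon arm; ctrl, controls; irr., irradiated), with muscle-poor libraries in blue, muscle-rich in red and bars at the means of 4. Myh1, Pvalb and Ttn have higher means in the rich libraries of each group, with some overlap of single libraries (Ttn after photons); Hspb1 is higher and Med13l lower by small steps, also with overlap, and Myh7 and Krt8 do not follow the classes. The vertical scales differ.

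Levels per kilobase of transcript allow the heavy chains to be compared with each other. In the 14 rich libraries with at least 10 CPM of heavy chains in total, Myh4 made up 59.2% to 95.3% of the 4 adult heavy chains per kilobase (median 90.5%). Myh1 followed with a median of 8.99%, Myh2 with 1.02% and Myh7 with 0.0348%. In the 6 poor libraries above that minimum Myh4 made up 39.5% to 98.9% (median 67.5%), and Myh7 had a median of 6.56%. The ranges of the classes overlapped, Myh4 is a score gene, and the poor libraries rest on at most 80.3 CPM of heavy chains, so the makeup is a description. Heavy chains also share sequence: 26.7% of the 50-base stretches of Myh1 and 26.9% of those of Myh2 occur in another gene's transcripts.

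**Figure D4:**
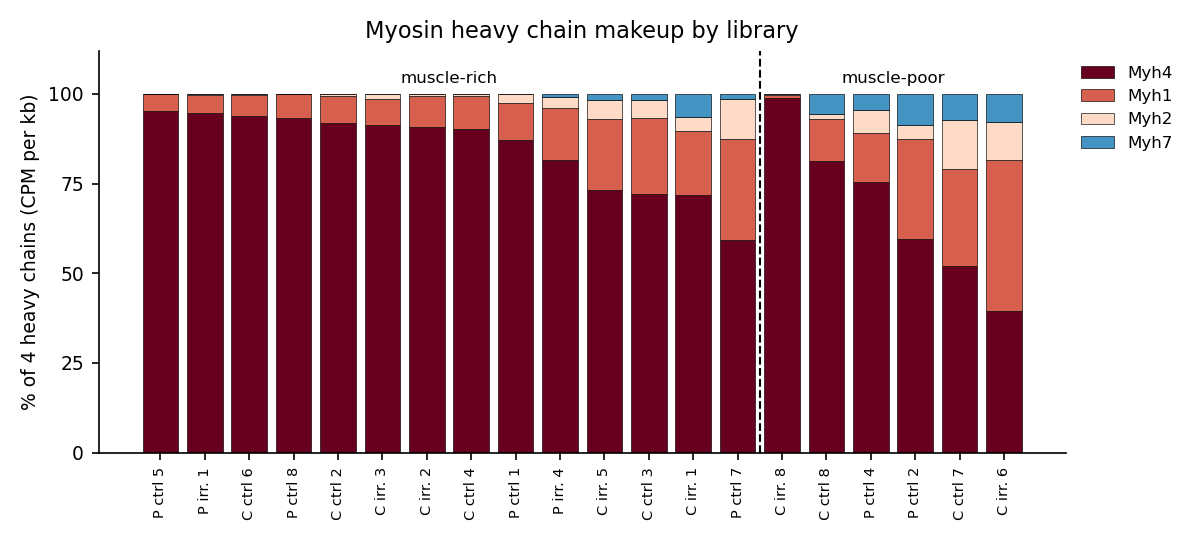
Share of Myh4, Myh1, Myh2 and Myh7 in their summed level per kilobase for the 20 libraries with at least 10 CPM of heavy chains, muscle-rich left of the dashed line and muscle-poor right of it. Numbers under the bars are replicates; Myh4 is the largest share in all 14 rich libraries, and Myh7 exceeds 6% in 1 rich library.

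Outside the muscle lists 136 of 20368 tested genes differed (0.668%), of which 132 were higher (0.648%) and 4 lower (0.0196%). Of the 132 higher ones, 81 (61.4%) had a mean under 1 CPM in the poor class, against 22.3% of the 20368 tested genes, and 34 of the 81 were under 1 CPM in the rich class as well. A gene near 0 in the poor class enters the test only through the rich libraries where it is high, in the muscle lists too. Counts, sizes and p-values of such genes are therefore descriptions. The 6 with the smallest p at moderate levels were Hspb7, Nrap, Hspb1, Ankrd23, Cmya5 and Rtn2. Hspb7, a small heat shock protein of heart and skeletal muscle, differed by 2.98 ± 0.43 (adjusted p = 0.000103), from 3.12 ± 3.98 to 23.4 ± 16.9 CPM (SD, n = 16 each). Nrap, an actin-binding protein of myofibril assembly, differed by 3.19 ± 0.47 (adjusted p = 0.000127). Cmya5, a large Z-disc-associated protein, differed by 2.86 ± 0.45 (adjusted p = 0.000204), and Rtn2, a reticulon, by 1.14 ± 0.18 (adjusted p = 0.000244). Ankrd23, a muscle ankyrin repeat protein, differed by 2.45 ± 0.37 (adjusted p = 0.000141), but 88.7% of its 50-base stretches also belong to the overlapping gene Gm42417, and reads of these genes may have been divided between them.

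Hspb1, a small heat shock protein found in many cell types, was the clearest case of a gene with a high base. It was read at 25, 31.2, 16.3 and 32 CPM in the rich carbon-ion controls against 19.2, 15.8, 9.75 and 13.4 CPM in the poor ones, where the lowest rich library fell below the highest poor one. After photons the rich libraries had 22.3, 24.3, 22.3 and 25.1 CPM and the poor ones 14.7, 12.7, 17.1 and 13.9 CPM, with no overlap. All 16 rich libraries lay above the median of their group's poor libraries, and the difference was 0.75 ± 0.11 (adjusted p = 0.000135). Of its 50-base stretches, 51.6% also occur in the pseudogene Hsp25-ps1. Besides Hspb1, the higher genes outside the lists with a mean over 10 CPM in the poor class were Ankrd23, Cobl, Gyg, Fhl1, Ugp2 and Ndrg2, named after their values were seen. Of these, Gyg, which primes glycogen, differed by 0.33 and Ugp2, which makes UDP-glucose for it, by 0.24 on the log2 scale, with adjusted p-values of 0.0218 and 0.0330 in the same edgeR fit.

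The 4 genes that were lower in the muscle-rich libraries moved by small steps. Med13l, a subunit of the Mediator kinase module that overlaps 5 predicted genes on its own strand, was read at 229, 243, 223 and 230 CPM in the rich photon controls and at 285, 275, 287 and 312 CPM in the poor ones, without overlap. In the carbon-ion controls the rich libraries held 241, 230, 244 and 242 CPM, and 1 of the 4 poor libraries, at 222 CPM, lay below them. Over all groups the log2 difference was -0.21 ± 0.05 (adjusted p = 0.0273), and 1 of 16 rich libraries lay above its group's poor median. Dkk3, a secreted Dickkopf family protein, had -0.42 ± 0.10 (adjusted p = 0.0369), Klf7, a Krüppel-like transcription factor, -0.23 ± 0.06 (adjusted p = 0.0378) and Snrk, a kinase of the AMPK-related family, -0.20 ± 0.05 (adjusted p = 0.0355). Each of the 4 lost its call with M titles alone while staying negative, at -0.21 for Med13l (adjusted p = 0.265), -0.34 for Dkk3 (adjusted p = 0.442), -0.25 for Klf7 (adjusted p = 0.112) and -0.19 for Snrk (adjusted p = 0.312). Single libraries also ended these calls: of 32 fits that each left out 1 library, Snrk was lost in 26, Dkk3 in 23, Klf7 in 18 and Med13l in 13, and between 0 and 6 genes were lower. The log2 differences in those fits moved little and kept their sign, from -0.22 to -0.18 for Snrk, -0.47 to -0.38 for Dkk3, -0.25 to -0.21 for Klf7 and -0.23 to -0.19 for Med13l.

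The 27 lists of other tissues, stroma, immune cells, tumour cells and cell programmes held 251 tested genes. At the threshold 0 were higher and 0 lower, and 116 had a positive difference. Of the 14 tumour epithelial genes, 6 had a positive and 8 a negative difference, with a median of -0.02. Krt8, a keratin of simple epithelia, lay between 785 and 1540 CPM in the rich libraries and between 690 and 1719 CPM in the poor ones, a log2 difference of 0.00 ± 0.11 (adjusted p = 0.999) whose sign changed with the scaling of the libraries. Epcam, an epithelial adhesion molecule, had -0.31 ± 0.23 (adjusted p = 0.901). The summed level of the tumour epithelial list ran from 4098 to 5914 CPM in the rich and from 3722 to 6489 CPM in the poor libraries.

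Tissues that might lie beside skeletal muscle were looked at in the same way. All 12 tested adipocyte genes had a negative difference (median -0.67) and none passed. Adipoq, the fat cell hormone adiponectin, had -1.62 ± 0.97 (adjusted p = 0.855). Its highest value, 23.2 CPM, was in carbon-ion control replicate 5, the library with the lowest score of the series, and without that library the difference was 0.04. The summed adipocyte list ran from 37.1 to 156 CPM in the rich and from 38.8 to 571 CPM in the poor class. Of 8 tendon genes 4 were positive and 4 negative. All 8 Schwann cell genes were negative, with a median of -0.14. Of 5 tested keratinocyte genes 4 were negative; Krt14, a basal keratin, had -0.57 ± 0.41 (adjusted p = 0.898). The heart-restricted list summed to at most 1.53 CPM in any library, and Myh6, the cardiac heavy chain, was at 0 in 29 of 32 libraries. Smooth muscle actin, Acta2, had -0.05 ± 0.13 (adjusted p = 0.998) on levels of 213 ± 61.4 and 218 ± 56.7 CPM (SD, n = 16 each).

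None of the genes of the stromal and programme lists passed the threshold. Pecam1, the endothelial adhesion molecule, had -0.12 ± 0.15 (adjusted p = 0.963) and Col1a1, the chain of type I collagen, -0.20 ± 0.15 (adjusted p = 0.905). All 11 resting fibroblast genes were negative (median -0.23), as were all 5 lymphatic endothelial genes (median -0.31). All 15 mitosis genes and all 14 DNA replication genes were positive, with medians of 0.21 and 0.19, and Mki67, the proliferation marker, had 0.22 ± 0.15 (adjusted p = 0.882). By group, the Mki67 difference was 0.15 among carbon-ion controls, -0.01 after carbon ions, 0.73 among photon controls and 0.03 after photons. It thus lay mostly in the photon controls, and no list was tested as a whole. Of the 12 hypoxia genes 11 were negative (median -0.26). Single genes reached -1.12 in the resting fibroblast list and -0.56 in the hypoxia list. The T cell list had a median of 0.30, the macrophage list 0.12 and the neutrophil list 0.20. The nearest to a call was Ccng1, a p53 target named after its values were seen, with 0.23 ± 0.06 (adjusted p = 0.0632). It passed with the DESeq2 test, with M titles alone, with the letter as a block and with the continuous score.

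Within single groups of 4 against 4 libraries, 0 genes passed in any group (0% of 20470). At an unadjusted p under 0.05 there were 574 genes among carbon-ion controls, 671 after carbon ions, 2009 among photon controls and 434 after photons. Of the 102 muscle list genes 100, 99, 96 and 90 were positive, in the same order, with median log2 differences of 2.52, 2.45, 1.72 and 1.20. The classes were formed from muscle RNA within each group, so this direction follows largely from the construction and is a description. The difference between the groups was tested with the interaction of group and class. No gene passed (0 of 20470, 0%), the smallest adjusted p was 0.9995, 479 genes had an unadjusted p under 0.05, and a DESeq2 likelihood ratio test also gave 0. The gene with the smallest p at moderate levels was Timeless, a replication fork protein, which in the photon controls lay at 32.2, 33.1, 30.4 and 30.4 CPM in the rich and 17.1, 27.4, 21.0 and 17.7 CPM in the poor libraries. In the carbon-ion controls its rich libraries held 22.9, 24.8, 21.2 and 21.6 CPM and its poor ones 27.5, 28.5, 26.4 and 31.8 CPM, the opposite order, at an interaction adjusted p of 0.9995. Herpud1, Slf1 and Ddx51 were next, with the same adjusted p.

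The class also bore on the comparison of irradiated tumours with their controls. Before any class was used, the 106 tested muscle list genes, score genes included, had a median photon log2 fold change of -2.07, and 101 of them were negative, against a median of -0.00060 over all genes. Of these 106, 6 passed, where 781 of 20474 genes passed in all (3.81%). After carbon ions the median of the muscle genes was -0.09 and 64 were negative. With the class as a term, 982 genes passed for photons (4.8%), of which 54 were muscle list genes, all lower after photons. These 54 do not count as support for a photon effect on muscle genes, since the class was formed from muscle RNA within each group and takes the spread within groups out of these genes by construction. With the score itself in the model, 0 of the 106 muscle genes passed and their median was -0.21. This too follows from the construction, since the score is built from 4 of the 106 and the higher muscle genes follow it closely, so it is a description of the fit and no test of a photon effect on muscle genes.

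Over all genes, the calls depended on how muscle entered the model. With the score 223 genes passed for photons (1.09%), of which 217 were also among the 781, which is 27.8% of the 781 and 97.3% of the 223. All 781 genes kept the sign of their photon log2 fold change. The size of these changes moved little, with a median ratio of 0.957 with the score over without it, and over all genes the median ratio of standard errors was 1.10. Ranked from highest to lowest, the score was lower after photons than in the photon controls at each of the 8 ranks, so score and photon treatment overlap in part and their shares cannot be fully told apart. The split of the 982 calls, 401 higher (1.96%) and 581 lower (2.84%), depended on scaling: it was 644 higher and 533 lower with upper-quartile scaling and 577 higher and 452 lower with column totals. Photon calls also rested on single libraries, which fell to 418 without replicate 3 of the photon controls and came to 1673 without replicate 2. Within the rich class 206 genes passed for photons (1.01%) and within the poor class 3 (0.0147%), and the difference of these effects was not tested on its own.

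Myh1 shows the change in a single gene. Its photon log2 fold change was -3.36 ± 1.16 with group alone (adjusted p = 0.0877), -3.68 ± 0.88 with the class (adjusted p = 0.0165) and -0.47 ± 0.76 with the score (adjusted p = 0.797). Hspb1 had -0.68 ± 0.24, -0.68 ± 0.16 and -0.29 ± 0.20, with adjusted p-values of 0.0973, 0.0152 and 0.470. The carbon-ion effect gave 0 calls with the class and 0 without it (0%), with 1160 and 1177 genes at an unadjusted p under 0.05, and 18 calls with DESeq2 and the class.

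**Figure D5:**
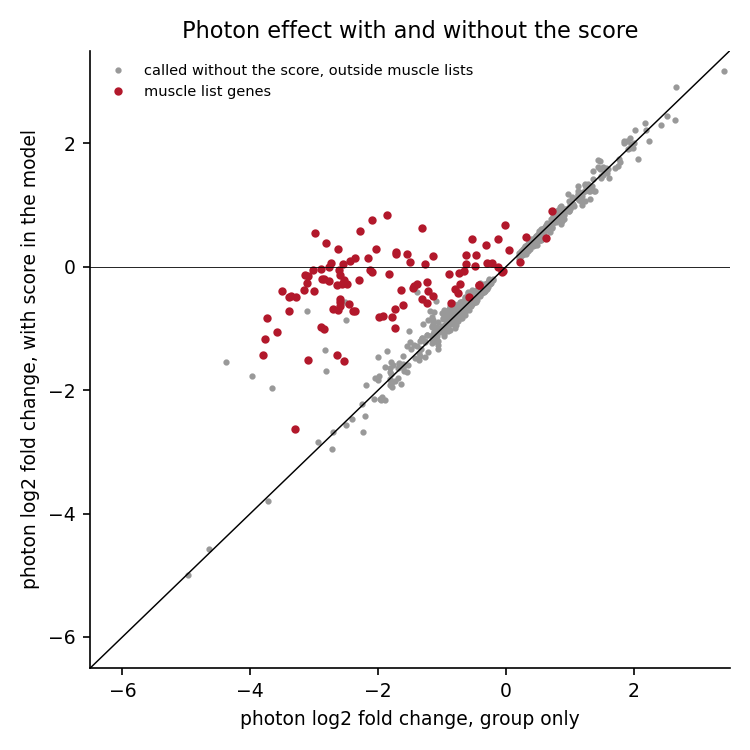
Photon log2 fold change of each gene with treatment group alone (horizontal) and with the score added to the model (vertical), for muscle list genes (red) and for other genes called with group alone (grey); the diagonal marks equal values. Grey points lie near the diagonal; the red points, which include the 4 score genes and others that follow the score, have medians of -2.07 and -0.21, a move towards 0 that is built into a fit with the score.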

How the data were processed

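The authors deposited 1 table of estimated counts (expected counts of RSEM) per gene symbol for 32 libraries. Per the submitters' processing notes, FastQC 0.12.0, Trimmomatic 0.32, RSEM 1.3.3 and mm10 were used; which annotation and strand setting were used is not given in the sources used here, so genes that overlap or share sequence carry added uncertainty. Stranded mRNA libraries were made, per the labels' protocols. The estimated counts were rounded to whole numbers, which moved library totals by at most 0.00403%. Counts were tested in R 4.3.3 with edgeR 4.0.16 (TMM scaling, filterByExpr over the 4 groups with a minimum count of 10, 20474 genes, glmQLFit and glmQLFTest), as log2 fold changes with treatment group and class in an additive model, Benjamini-Hochberg adjustment and a threshold of 0.05. Standard errors came from the quasi-likelihood F statistic. Totals of 13891863 to 71645903 counts per library set the precision of low genes. The test, run on simulated counts with 50 genes changed at each size, recovered 46 at a log2 change of 1 and 50 at 2, with 7 false calls among 20206 genes. Whether these rates hold at the wide spread and low levels of many genes called here was not tested. DESeq2 1.42.0 was an alternative. The members and gene lists were chosen with earlier results of these data known. Genes named are the score genes, a set list of muscle and other marker genes, and outside the muscle lists up to 6 higher and up to 6 lower genes with the smallest p among those called at a mean log2 CPM of at least 2, predicted genes passed over (4 lower genes were called). Interaction genes are the 4 with the smallest p. Replicate numbers follow the order of deposition.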

Additional observations from a re-analysis of the deposited data

Results flagged for a closer look

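Carbon-ion irradiated replicate 3 held the highest share of muscle list counts, 1.25% of its total. Its gap to the nearest of the other 7 libraries of its treatment group, taken over the range of the group, exceeded Dixon's critical value. The share includes the 4 score genes (0.35% in this library) and genes that follow them, so it describes the library and says nothing about the difference between the classes. Over the 20 groups of values tested, chance alone flags about 1 in 20 if the values are normally distributed. The share was tested as a percent without a log, and the score, which is on a log2 scale, did not flag this library. Without this library 179 genes differed between the classes, against 198 with it.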

How the results depend on the processing

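The count of 198 genes that differed between the classes ran from 158 (M titles alone) to 262 (the score as a continuous covariate) over the other fits and class rules, and from 179 to 217 with each library left out in turn. Chosen after seeing the data, leaving out the carbon-ion controls gave 116. The count of 62 muscle list genes ran from 60 to 68 and the interaction count stayed at 0 with each library left out. The 4 lower genes became 0 to 14 under the alternatives. Photon calls with the class, 982, were 1635 with DESeq2, 223 with the continuous score and 418 to 1673 with libraries left out. Carbon-ion calls, 0, were 18 with DESeq2 and 0 to 5 with libraries left out (5 without carbon-ion irradiated replicate 2). Over 43 named genes and 16 alternatives each, 619 of 688 values kept their direction and side of the threshold, 40 lost a call, 14 gained one and 15 changed sign; all 15 were in Myh7, Krt8 and Acta2, which never passed. Myh7 had -0.10 with M titles alone and -0.12 without the carbon-ion irradiated group. Krt8 had -0.00817 with upper-quartile scaling, -0.00430 with column totals, -0.00178 with no filter, -0.00301 with the continuous score, -0.00431 with classes from other muscle genes, -0.0250 without the photon controls and -0.0350 without the photon-irradiated group. Acta2 had 0.11 with M titles alone, 0.000155 with the letter as a block, 0.0771 with 3 against 3 libraries, 0.00491 with the continuous score, 0.00564 without the carbon-ion controls and 0.0757 without the carbon-ion irradiated group. With libraries left out, Myh7 ran from -0.26 to 0.90, Krt8 from -0.0356 to 0.0447, Adipoq from -1.93 to 0.0377 and Acta2 from -0.0902 to 0.0153. The cause of these moves was not tested. No paired analysis was possible because replicate numbers were given in order of deposition and pair no libraries. Genes under about 1 CPM in most libraries, such as Myh7 and Pax7, rest on few counts.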

Other observations

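Among libraries with at least 10 CPM of heavy chains, the ratio of Ckm to Acta1 in CPM ran from 0.238 to 0.448 in 14 muscle-rich ones (median 0.365) and from 0.129 to 0.442 in 6 muscle-poor ones (median 0.232). Both are score genes, so the ratio is a description. Per kilobase, the rich-class medians were 225 CPM for Acta1, 52.3 for Atp2a1, 40.0 for Ckm, 37.9 for Myl1, 37.4 for Des, 32.3 for Mylpf and 23.6 for Myh4. On this scale every other muscle list gene lay below Acta1. The median ratio to Acta1 was 0.165 for Mylpf, from 0.0822 to 0.269, and 0.0187 for Tnnc2, from 0.00895 to 0.0320. The pseudogene Mylf-ps, which shares 65.1% of its 50-base stretches with Myl1, was read at a mean of 0.356 CPM in the muscle-rich and 0.0211 CPM in the muscle-poor libraries. A930016O22Rik, which lies antisense to Ckm, was read at 0.922 and 0.0993 CPM. Both are near 0 in the poor class and entered the test through the rich libraries, so their levels are descriptions.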
